A study of Rattus norvegicus with 7 samples.

Results

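The acinar miRNAs miR-216a, miR-216b-5p, miR-216b-3p and miR-217 were measured in pancreatic islets of young and aged rats. They were taken by their names on the miRNA array (rno-miR-216a, rno-miR-216b-5p, rno-miR-216b-3p and rno-miR-217), 4 of the 677 rat miRNAs it held. The software called miR-217, miR-216a and miR-216b-5p detected on all 7 arrays and miR-216b-3p on 1 array only, so that 3 of the 4 passed the filter on low signals. The samples were islets of male Wistar rats, 4 of them aged 12 months (replicates 2, 4, 10 and 16) and 3 aged 3 months (replicates 9, 11 and 13). No treatment or genetic change was given for either age. The islets were freed from the pancreas by collagenase digestion, and total RNA of each rat was labelled with 1 dye and hybridised to 1 Agilent array. Isolated islets are a mixture of endocrine cells with vessels, connective tissue and some exocrine tissue, so each signal is an average over cell types.

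MiRNAs are short RNAs that pair with target mRNAs mainly through their seed, the bases 2 to 8 from the 5′ end, and lower the translation or stability of those mRNAs. MiR-216a, miR-216b and miR-217 are made from neighbouring hairpins and are abundant in the acinar cells of the exocrine pancreas, which secrete digestive enzymes. In an islet preparation they therefore serve as markers of exocrine tissue that came along with the islets. No other acinar marker was measured in the data used here, and the number of acinar cells was not counted.

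The mature sequences of the 4 miRNAs are shown with the seed in capitals because the array reads them by hybridisation, so that likeness between them bears on how separately they were measured. They are RefSeq sequences on the rat build GRCr8, matched by name, and the array names without an arm were taken as the 5p arm.
miR-216a: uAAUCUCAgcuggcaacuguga
miR-216b-5p: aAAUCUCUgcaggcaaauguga
miR-216b-3p: cACACUUAcuuguagagauu
miR-217: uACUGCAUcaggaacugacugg
MiR-216a and miR-216b-5p had the same base at 18 of 22 positions and at 6 of the 7 seed positions, and thus did not share a whole seed. MiR-216a and miR-217 had the same base at 6 of 22 positions and at 2 of the 7 seed positions. Cross-hybridisation between their probes was not tested.

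All 4 lie on the plus strand of chromosome 14 in GRCr8. MiR-216b-5p lies at chr14:106714045-106714066 and miR-216b-3p, from the other arm of the same hairpin, at chr14:106714084-106714103. MiR-216a lies at chr14:106725095-106725116 and miR-217 at chr14:106732516-106732537. The hairpins of Mir216b and Mir216a were 10949 bp apart and those of Mir216a and Mir217 7302 bp apart. The hairpins overlap the annotated locus LOC102550402, those of Mir216a and Mir217 also overlap LOC102550342, and the nearest protein-coding genes on either side are Ccdc85a and Efemp1. The headers of the array name the older assembly rn4. No signal below depends on a coordinate, but the grouping of miRNAs by a region of chromosome 6 uses RefSeq positions.

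Between 278 and 296 miRNAs were detected on the arrays of 12-month-old rats and between 246 and 272 on those of 3-month-old rats, and the signal at the 75th percentile of the array was 67.0 to 73.8 and 37.4 to 55.4. The total gene signal is the background-subtracted brightness summed over the probes of a miRNA, and 0 spots were saturated. Arrays were made comparable by quantile normalisation of the log2 signals. The endocrine miRNAs miR-375 and miR-7a were detected on all arrays, whereas miR-122 of hepatocytes was detected on 0. The small number of arrays limits the precision.

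MiR-216a had a total gene signal of 90.1, 501, 916 and 177 on the arrays of 12-month-old replicates 2, 4, 10 and 16. On those of 3-month-old replicates 9, 11 and 13 it was 529, 673 and 1092. Replicates 2 and 16 of the aged rats were thus far below the rest, while replicate 10 of the aged rats was brighter than 2 of the 3 young ones. The error that the software gives for these signals was between 6.88% and 7.66% of the signal, far under the 10.2-fold range among the 4 aged rats.

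MiR-216b-5p showed the same order of arrays within each age. Its signal was 11.1, 85.4, 147 and 28.5 in the aged rats and 69.2, 125 and 190 in the young rats. The lowest of these, on the array of replicate 2, came with a software error of 23.4% and was the least well measured.

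MiR-217 had a signal of 47.5, 257, 388 and 89.4 in the aged rats and of 288, 299 and 440 in the young rats. Replicates 2 and 16 were again the lowest and replicate 13 of the young rats the highest, and the ages again overlapped through replicate 10. MiR-216b-3p, the opposite strand of the miR-216b hairpin, stayed between -0.922 and 9.30 and was called detected only on the array of replicate 13, which also had the highest signals of the other members.

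**Figure D1:**
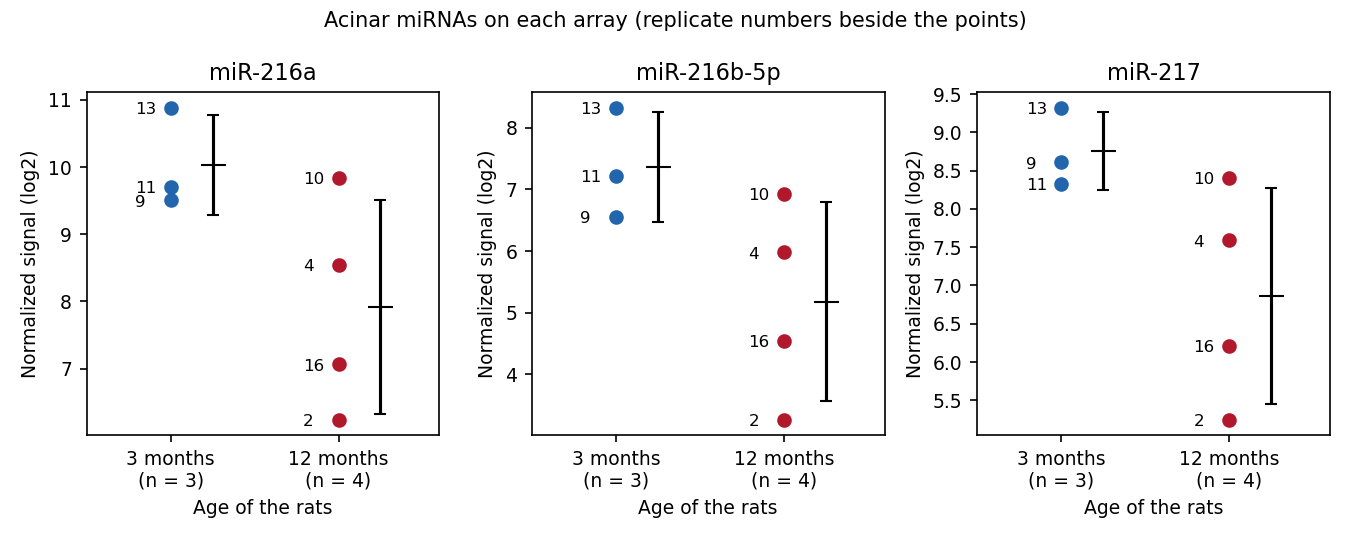
Normalised log2 signal of the 3 detected acinar miRNAs (y axis, a separate scale in each panel) by age (x axis). Points are single arrays with their replicate numbers, and the bars give the mean and SD (n = 3 at 3 months and n = 4 at 12 months). In each panel replicates 2 and 16 are the lowest, and replicate 10 of the aged rats reaches into the range of the young rats.

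The age comparison asks whether islet miRNAs differed between 3 and 12 months. On the normalised log2 scale, miR-216a was 7.92 ± 1.59 (SD, n = 4) at 12 months and 10.03 ± 0.74 (SD, n = 3) at 3 months. The difference was -2.11 (SE 0.81, 95% CI -3.97 to -0.25), that is a 4.32-fold lower geometric mean of the normalised signal in the aged rats. With no normalisation the difference was -1.32, and the mean total gene signal was 421 at 12 months and 765 at 3 months. Limma's moderated test gave an unadjusted p of 0.0305 and an adjusted p of 0.17 over the 272 miRNAs tested, and the exact permutation test, which splits the rats into 4 and 3 in all 35 ways, gave p = 0.143 (two-sided, smallest possible 0.0286).

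MiR-216b-5p was 5.18 ± 1.61 (SD, n = 4) at 12 months and 7.37 ± 0.90 (SD, n = 3) at 3 months, a difference of -2.19 (SE 0.84, 95% CI -4.12 to -0.26). Its limma adjusted p was 0.17 and its exact permutation p 0.114. MiR-217 was 6.86 ± 1.41 (SD, n = 4) at 12 months and 8.75 ± 0.51 (SD, n = 3) at 3 months, a difference of -1.89 (SE 0.70, 95% CI -3.50 to -0.29). Its limma adjusted p was 0.163 and its exact permutation p 0.0857. None of the 3 passed the adjusted test, and the ages overlapped in each.

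Thus 0 of the 3 tested members were called at an adjusted p below 0.05, a call that 1.47% of all tested miRNAs received. All 3 had a lower mean at 12 months with an unadjusted limma p below 0.05, as did 12.5% of all tested miRNAs. All 3 means were lower by more than 1 on the log2 scale, against 2.94% of all tested miRNAs, and 0 of the 3 had ages that did not overlap, against 17.3%. The median difference over all tested miRNAs was 0.06. Fewer acinar cells and less of these miRNAs per cell cannot be told apart in RNA of whole islets.

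The array weights of limma, which give less weight to arrays that deviate, made the 3 differences -2.69, -2.76 and -2.35 and moved all of them past the threshold (adjusted p 0.0241 for miR-216a, 0.0343 for miR-216b-5p and 0.033 for miR-217). The slide held the arrays in 2 rows, each with both ages. Row 1 held aged replicates 2 and 4 but only replicate 9 of the young rats, and row 2 aged replicates 10 and 16 and young replicates 11 and 13. Within row 1 the differences were -2.11, -1.93 and -2.19 and within row 2 -1.84, -2.04 and -1.52, in the same order of miRNAs, and with the row as a block they were -1.95, -2.00 and -1.79 (limma adjusted p 0.225, 0.223 and 0.223).

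Rats of one age differed widely in the acinar miRNAs. Ranked by SD within age over the 272 tested miRNAs, miR-216b-5p was 2nd, miR-216a 3rd and miR-217 4th. Their SDs among the aged rats of 1.41 to 1.61 on the log2 scale compare with a median of 0.27 over the tested miRNAs. Among the young rats they were 0.51 to 0.90 against a median of 0.23, and the ranks were 12, 21 and 38. The coefficient of variation of the total gene signal of miR-216a was 88.9% at 12 months and 38.3% at 3 months, that of miR-216b-5p 90.3% and 47.2%, and that of miR-217 80.4% and 24.7%. Whether the spread differed between the ages was not tested.

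The 3 detected members rose and fell together from array to array. The log2 difference between miR-216a and miR-217 before normalisation stayed between 0.88 and 1.31 over the 7 arrays, with an SD of 0.17, whereas the log2 signals of miR-216a and miR-217 themselves had SDs of 1.31 and 1.20. For miR-216a and miR-216b-5p the difference stayed between 2.43 and 3.01 (SD 0.22), and for miR-216b-5p and miR-217 between -2.09 and -1.21 (SD 0.36). These differences are followed across arrays only, since the brightness of 1 miRNA cannot be set against that of another.

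Pearson's r of the normalised signals over the 7 arrays was 0.99 (Spearman's rho 0.96) for miR-216a and miR-216b-5p. It was 0.99 (rho 0.89) for miR-216a and miR-217 and 0.98 (rho 0.86) for miR-216b-5p and miR-217. With the age means taken off, r was 0.98, 0.98 and 0.96, and without the 2 arrays farthest from the median, those of replicates 2 and 16, it was 0.97, 0.96 and 0.89. Of all 36856 pairs of tested miRNAs, whose median r was 0.04, 0.0217%, 0.0298% and 0.168% had an r at least as high. These are descriptions of arrays that share their RNA and normalisation, with no test.

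Single probes are the parts that the total gene signal sums, so their differences describe it and are not separate support. MiR-216a was read by 4 probes, 3 of them well above background on all 35 spots and 1 on 0 spots. The 3 measured probes differed between the ages by -1.36, -1.29 and -1.30 on the log2 scale before normalisation. The 2 probes of miR-217 differed by -1.36 and -1.18, and the 2 brightest of the 4 probes of miR-216b-5p by -1.34 and -1.30. No probe of a detected member that had a value went the other way, but the dimmer probes of miR-216a and miR-216b-5p had no value.

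The strands that fell under the detection limit gave weak signals that leaned the same way. The linear signal of miR-216b-3p had r = 0.84 (rho 0.75) with the mean log2 signal of the 3 detected members, which fell to 0.64 without the 2 farthest arrays. MiR-216a*, the passenger strand of miR-216a, was detected on 0 arrays with signals between -2.90 and 7.63, and had r = 0.86 (rho 0.86), or 0.64 without those 2 arrays. MiR-217* was below 0 on all arrays. These signals are close to their software errors, and no level is given for them.

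The mean log2 signal of the 3 detected members, here called the acinar mean, was used as a measure of acinar signal per array. It was 4.92, 7.37, 8.39 and 5.94 in the aged rats and 8.22, 8.42 and 9.51 in the young rats, or 6.65 ± 1.54 (SD, n = 4) and 8.72 ± 0.70 (SD, n = 3). As a share of the signal of all detected miRNAs, the 3 made up 0.0371%, 0.244%, 0.532% and 0.0773% in the aged rats and 0.472%, 0.454% and 1.02% in the young rats, a 27.4-fold range. Relative to miR-375, an abundant miRNA of islet endocrine cells, their mean was -8.83, -6.00, -4.74 and -7.76 in the aged and -5.55, -5.08 and -4.21 in the young rats (log2, before normalisation). The 2 measures put replicates 2 and 16 lowest and replicate 13 highest, as the normalised values did.

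The acinar mean was set beside how much of the array was detected, as a description with no test. Its Pearson's r with the number of detected miRNAs was -0.73 (rho -0.79), -0.90 without the 2 farthest arrays and -0.38 with the age means taken off. With the 75th percentile of the signal, r was -0.65 (rho -0.54), -0.77 and -0.05. The part of overall array brightness in the results on the acinar mean was not tested beyond the scalings given below.

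Of the 269 other tested miRNAs, 98 had a positive and 171 a negative r with the acinar mean, and the median r was -0.34. This split depended on how the arrays were scaled. It was 91 and 178 with the 75th percentile of the miRNAs detected on all arrays, 74 and 195 with that of all miRNAs, 94 and 175 in the matrix of normalised values that the authors deposited, and 27 and 242 with no normalisation. Scaling to miR-7a turned it to 218 and 50, and scaling to miR-375, chosen after the data were seen, gave 126 and 142. Those scalings moved the median age difference of the tested miRNAs to 0.79 with no normalisation, 0.22 with miR-375, 0.16 with the 75th percentile of all miRNAs and -0.08 with miR-7a.

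MiR-181b, which like miR-181a belongs to a family with many roles in blood and immune cells, had the highest Pearson's r with the acinar mean. Its normalised log2 signal was 3.30, 4.06, 4.69 and 3.55 in the aged rats and 4.69, 4.82 and 5.83 in the young rats. It was lowest in replicates 2 and 16 and highest in replicate 13, the arrays at the ends of the acinar mean. Pearson's r was 0.96 (rho 0.99, exact permutation p = 0.000397 over all pairings of the arrays, adjusted p 0.0356 over the 269 miRNAs). It was 0.93 with the age means taken off and 0.99 without the 2 farthest arrays, and it lay between 0.95 and 0.98 in the 7 scalings, 6 of which gave an adjusted p below 0.05.

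The next in order were miR-19b (r = 0.91), miR-378 (0.90), miR-290 (0.88), miR-181a (0.88) and miR-92a (0.87, with a rho of 1), with adjusted exact permutation p values between 0.0582 and 0.0972, so that none of these 5 passed. Over the 7 scalings, this one included, an adjusted p below 0.05 was reached by miR-19b in 4, by miR-378 and miR-181a in 3 each, by miR-92a in 2 and by miR-290 in 1. MiR-19b and miR-92a are members of the miR-17-92 cluster, which promotes proliferation. Across the 7 scalings r of miR-181a stayed between 0.88 and 0.95 and that of miR-19b between 0.73 and 0.94. The r of miR-290 went down to 0.09 and that of miR-378 to 0.44, while with miR-7a miR-378 (0.99) was just above miR-181b (0.98).

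The mature sequences of the 2 miR-181 miRNAs are shown, with the seed in capitals, because both are among the 6 miRNAs most like the acinar mean.
miR-181a: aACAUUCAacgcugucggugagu
miR-181b: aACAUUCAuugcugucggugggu
They share the whole seed and have the same base at 20 of 23 positions. MiR-181b had the same base as miR-216a at 5 positions, and its seed is not that of any acinar miRNA above.

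At the other end, miR-376b-5p (r = -0.97), miR-22* (-0.97), miR-434* (-0.96) and miR-384-3p (-0.95) went against the acinar mean. MiR-22* was 5.88, 5.52, 5.20 and 5.85 in the aged rats and 5.26, 5.22 and 4.80 in the young rats, highest where the acinar mean was lowest. MiR-22* and miR-434* passed the adjusted exact permutation test (both 0.0356), and miR-376b-5p (0.0534) and miR-384-3p (0.0582) did not. These 4 were less steady than miR-181b under other scalings. With miR-7a, r of miR-22* was -0.25 and that of miR-434* -0.12.

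In all, 62 of the 269 miRNAs had an exact permutation p below 0.05 for the correlation (23% of those tested, 16 positive and 46 negative), and 5 passed after adjustment (1.86%). The 5 were miR-181b, miR-22*, miR-434*, miR-543* and miR-652. With any 1 of the 7 arrays left out, or with the row of the slide taken off, 0 of them passed (62 still had an unadjusted exact p below 0.05 with the row taken off, and 40 to 81 with 6 arrays). For 6 arrays there are fewer pairings and the smallest p is larger, so it is harder to pass after adjustment. For miR-181b, r was 0.96 with the row taken off (adjusted exact permutation p 0.0762) and between 0.96 and 0.98 with 6 arrays (between 0.0958 and 0.2275).

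**Figure D2:**
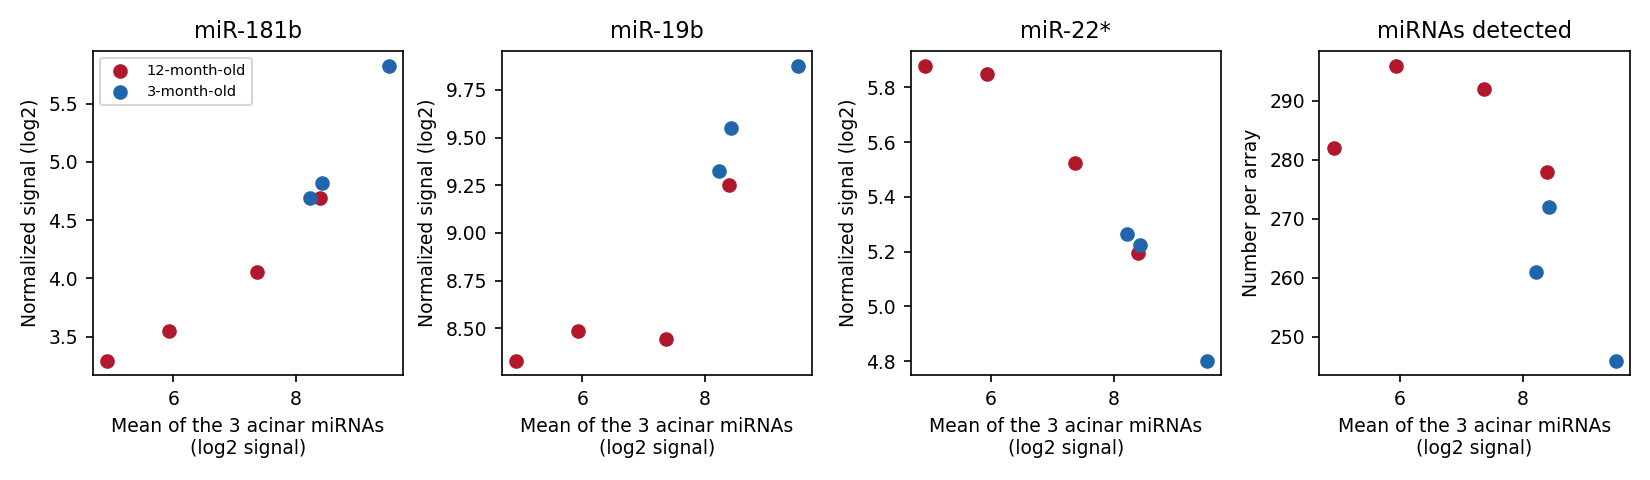
Acinar mean (x axis, mean log2 signal of the 3 detected acinar miRNAs) against the normalised log2 signal of miR-181b, miR-19b and miR-22* and the number of miRNAs detected (y axes), with 1 point per array and colours for the 2 ages. The aged rats' replicate 10 lies among the young rats in the panels of miR-181b and miR-22*.

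Since the acinar mean differed between the ages, the slope of each miRNA on it was also fitted with age in the model, which asks what varied with acinar signal among rats of one age. The slope passed for 0 of the 269 miRNAs after adjustment (limma, smallest adjusted p 0.118), and 67 (24.9%) had an unadjusted p below 0.05, 17 with a positive and 50 with a negative slope. MiR-181b had a slope of 0.45 (SE 0.08, limma adjusted p 0.118), that is a log2 rise of 0.45 for a rise of 1 in the acinar mean. Without age in the model 15 slopes passed (5.58%), 4 positive and 11 negative. Without 3-month-old replicate 13, 8 slopes passed with age in the model, and 24 passed in arrays scaled to miR-7a.

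With the age means taken off, the highest r were those of miR-181b (0.93), miR-27a (0.90), miR-139-3p (0.88), miR-322 (0.87) and miR-652* (0.87). The lowest were those of miR-340-5p (-0.97), miR-411 (-0.97) and miR-495 (-0.96). The r with the age means taken off was not recomputed on fewer arrays. With the ages pooled, r changed sign for 4 of these 8 without the arrays of replicates 2 and 16 and was near 0 for miR-322. The r of miR-27a was 0.24 with all arrays and -0.36 without those 2, and that of miR-322 0.68 and 0.0744. It was 0.69 and -0.61 for miR-139-3p, 0.74 and -0.18 for miR-652*, and -0.59 and 0.0498 for miR-340-5p. MiR-181b alone was in both rankings.

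Many of the miRNAs with a negative r are encoded in 1 region. RefSeq places a run of 57 miRNA genes from Mir770 to Mir410 on chromosome 6, the imprinted Dlk1-Dio3 region, whose miRNAs are made from long transcripts of the maternal allele. This group was chosen after the values were seen and gets no test. Of the other tested miRNAs that matched RefSeq by name, 51 are in it, and 44 of these had a negative r, 21 of them at -0.8 or below. Their median r was -0.77, against -0.12 over the 165 matched miRNAs elsewhere, of which 94 had a negative r. Of the 20 miRNAs with the lowest r, 19 were matched and 14 lie in the region, miR-411, miR-495, miR-376b-5p and miR-434* among them.

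With the age means taken off, the medians were -0.80 in the region and -0.13 elsewhere. The sign of the first depends on the scaling, since with miR-7a the medians were 0.24 and 0.61 and 16 of the 51 had a negative r. The region stayed below the rest in that and the 5 other scalings, with medians of -0.76 and -0.59 with no normalisation and -0.40 and 0.11 with miR-375. MiRNAs cut from one transcript do not vary independently. Their median age difference was 0.15, and -0.18 with the acinar mean as a covariate.

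**Figure D3:**
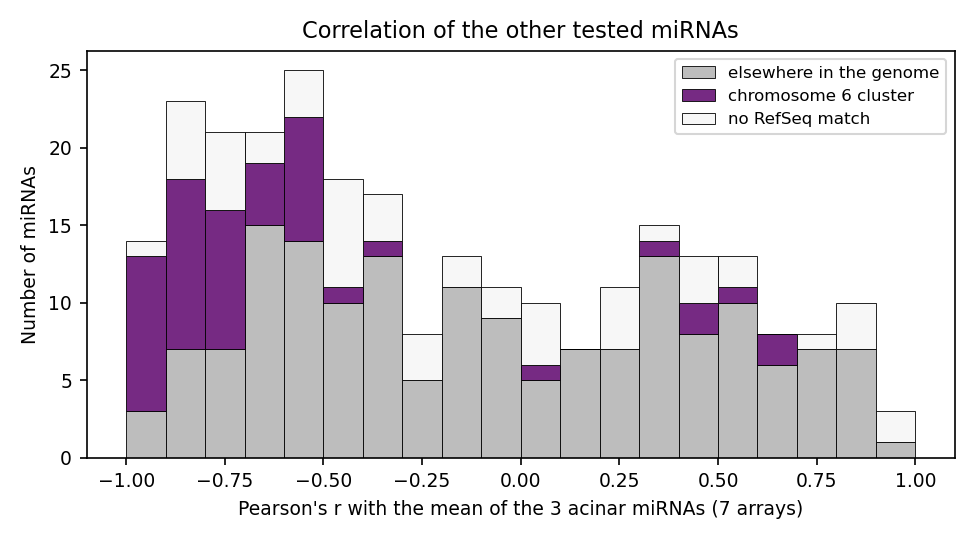
Number of miRNAs (y axis) by Pearson's r with the acinar mean over 7 arrays (x axis, bins of equal width) for the 269 other tested miRNAs, stacked by place in the genome. The miRNAs of the chromosome 6 region pile up at the negative end, 21 of 51 at -0.8 or below.

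Markers of other cell types were followed to see what else moved with the acinar miRNAs. Among the islet endocrine miRNAs, which include miR-375 and miR-7a, 9 of the 10 listed were detected on all arrays and miR-211 on 0. Their summed signal was 37856 to 71376 in the aged and 29254 to 39245 in the young rats before normalisation. Their mean normalised log2 signal was 9.45 to 9.95 and 9.70 to 9.79, so that the ages overlapped on that scale, and 7 of 9 had a negative r with the acinar mean, with a median of -0.57. That median was also negative in the other scalings except with miR-7a, where it was 0.38. The values for miR-96 (-0.75) and miR-183 (-0.72), were the lowest with those of the passenger strands of miR-7a. MiR-182, from the same cluster as miR-96 and miR-183, was at -0.37, miR-7a at -0.24 and miR-375 at 0.18. Once the age means were taken off, r was negative for all the tested endocrine miRNAs, between -0.89 and -0.14. It was then -0.78 for miR-182, -0.71 for miR-7a and -0.37 for miR-375. The normalised value of miR-7a was 14.81 on every array except that of 12-month-old replicate 10 (14.51), so its r rests on that array. Before normalisation its signal was 46071, 38605, 22838 and 43195 in the aged rats and 18670, 24524 and 17281 in the young rats. It was highest in replicates 2 and 16, where the acinar mean was lowest.

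Acinar, duct and islet cells have in common the epithelial miRNAs of the miR-200 family and miR-148b-3p. These had a median r of 0.02, with 3 of 6 negative. The sign of that median changed with the scaling (-0.54 with the 75th percentile of all miRNAs, 0.62 with miR-7a). Once the age means were taken off, r was 0.39 for miR-200a, 0.70 for miR-200b and 0.07 for miR-429. It was then -0.90 for miR-200c, -0.47 for miR-141 and -0.83 for miR-148b-3p. The mesenchymal miRNAs miR-143, miR-145, miR-199a-5p, miR-199a-3p and miR-214, known from smooth muscle and fibroblasts, all had a negative r with a median of -0.40, and of 0.02 with miR-7a. With the age means taken off, r was positive for miR-199a-5p (0.48), miR-199a-3p (0.70) and miR-214 (0.65). It was -0.14 for miR-143 and -0.13 for miR-145, so the negative sign of the pooled r did not hold for all of them within age. All 5 had a higher mean at 12 months in each of the 7 scalings, with a median difference of 1.16, and 0 passed at an adjusted limma p below 0.05. Their summed signal before normalisation was 2629 to 3645 in the aged rats and 736 to 1711 in the young rats, and their mean normalised log2 signal 7.03 to 7.79 and 5.93 to 6.79. The summed acinar signal before normalisation was 149 to 1456 and 889 to 1732.

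Endothelial markers (miR-126 and its passenger strand, miR-221) had a median r of -0.49 and the 5 leukocyte markers of -0.32, and both medians were positive with miR-7a (0.46 and 0.48) and with miR-375 (0.16 and 0.15). The leukocyte markers were split, with miR-142-3p (-0.32), miR-142-5p (-0.39) and miR-150 (-0.41) negative and miR-223 (0.40) and miR-146a (0.40) positive. With the age means taken off, r was 0.43, 0.36, -0.00055, 0.37 and 0.68 in the same order. For the endothelial miR-126, miR-126* and miR-221 it was then 0.60, -0.29 and 0.17. The red cell miRNAs miR-451 and miR-144 had a median r of 0.27, and of -0.16 with no normalisation. Of the muscle miRNAs only miR-133b was tested (r = -0.50, and 0.12 with miR-7a). In none of these lists did a miRNA pass the adjusted limma test between the ages, and the part of these cell types in the results on acinar miRNAs was not tested.

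**Figure D4:**
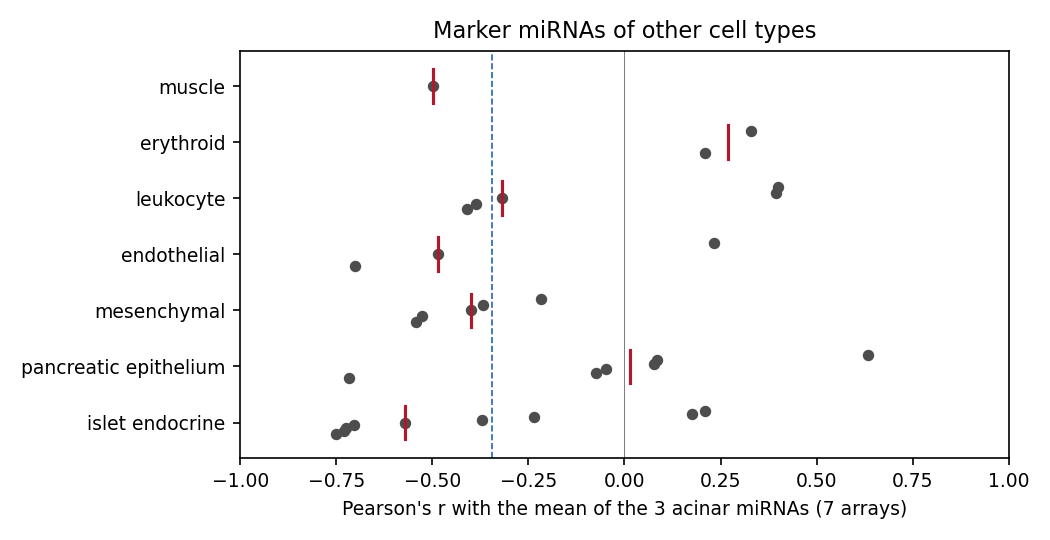
Pearson's r with the acinar mean over 7 arrays (x axis) for the tested miRNAs of each marker list (y axis). Points are miRNAs, red bars are list medians and the dashed line is the median over the 269 other tested miRNAs (-0.34). The endocrine list lies mostly to the left of that line, and the epithelial list mostly to its right.

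Finally, the acinar mean was taken as a covariate in the age comparison of the other 269 miRNAs. Of the aged rats only replicate 10 (8.39) had an acinar mean in the range of the young rats (8.22 to 9.51). The comparison at equal acinar signal thus rests on a straight-line fit carried beyond the overlap of the ages. Without it, 56 miRNAs (20.8%) had an unadjusted limma p below 0.05, 25 higher and 31 lower at 12 months. With it, 51 did (19%), 20 higher and 31 lower, and 30 miRNAs were in both, or 53.6% of the first and 58.8% of the second. The covariate widened the standard error of the age difference by a median of 1.17 times. Of the 56, 0 changed sign, and their median absolute difference went from 0.78 to 0.69 on the log2 scale.

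Of the 4 miRNAs with an adjusted p below 0.05 without the covariate, 3 passed with it (1.12%). MiR-383, detected on all arrays, went from 2.43 to 2.18 (limma adjusted p 0.0069). MiR-488 (limma adjusted p 3.83e-05 with the covariate) and miR-124, a neuronal and endocrine miRNA (0.0612), were detected on all arrays of the aged rats and were not detected on any array of the young rats. MiR-130b (limma adjusted p 0.0069) was detected on all arrays of the young rats and was not detected on any of the aged rats. The size of these 3 differences and their p values depend on the floor or on signals under the detection limit, so no difference is given for them.

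The miRNAs with the highest r were chosen for following the acinar mean, which itself differed between the ages, so a smaller age difference with the covariate follows from that choice and is given as a description. MiR-181b differed by -1.21 (SE 0.39) between the ages and by -0.28 (SE 0.25) with the covariate, where its unadjusted limma p was 0.299. MiR-181a differed by -1.12 (SE 0.24, limma adjusted p 0.0564) and by -0.66 (SE 0.24, limma adjusted p 0.198) with the covariate. MiR-19b went from -0.96 (SE 0.25) to -0.46 (SE 0.24). The number of miRNAs with an unadjusted p below 0.05 in the fit with the covariate was 17 without 12-month-old replicate 10, the aged rat with the most acinar signal, and 115 with no normalisation.

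**Figure D5:**
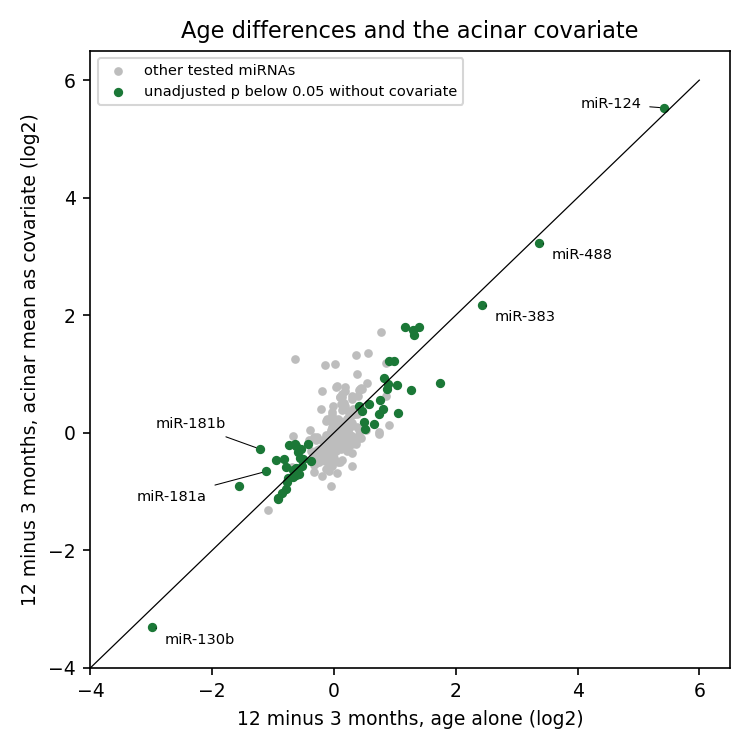
Age difference (12 minus 3 months, log2) of the 269 other tested miRNAs by age alone (x axis) and with the acinar mean as a covariate (y axis), with the line of equality. Green points had an unadjusted p below 0.05 without the covariate. MiR-124, miR-488 and miR-130b, whose size rests on undetected signals in one age, and miR-383 lie near the line, and miR-181b lies well above it.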

How the data were processed

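The arrays measured miRNAs in islet RNA of 7 rats, grouped by the age in their labels. The authors extracted spot intensities with Agilent Feature Extraction (version 10.7.3.1, per the labels) and deposited background-subtracted intensities on a linear scale and a matrix of quantile-normalised log2 values. The total gene signal was floored at 1, put on a log2 scale and quantile normalised over the 677 rat miRNAs. The test covered the 272 miRNAs called detected on each array of 1 age or both, and used limma 3.58.1 under R 4.3.3, two-sided, with Benjamini-Hochberg adjustment. The methods name Student's t-test, which was run as an alternative. Correlations used Pearson's r with exact permutation p values. The fits were also run on simulated data with independent noise for each miRNA, as a check of the code only.

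The members, the marker lists and the other choices were made with earlier results of these data known. The named miRNAs are the members, the 6 highest and 4 lowest by r, the 5 highest and 3 lowest by r with the age means taken off, those with the smallest adjusted p below 0.05 for the slope on the acinar mean, and the marker lists. MiR-130b, miR-383, miR-488 and miR-124 are named as the calls by age, and miR-543* and miR-652 as calls by r, after their values were seen. Alternatives covered scaling, filter, floor, background correction, signal summary, slide row, variance model and each rat left out. The mean spot signal before background subtraction was not among the values used here, so the normexp background correction (offset 16) took the median. The mRNA arrays and other experiments were not analysed here.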

Additional observations from a re-analysis of the deposited data

Results flagged for a closer look

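In the 4 aged rats, replicate 10 stood apart from the other 3 in miRNAs that followed the acinar mean. For miR-181a its gap to the nearest other rat was 0.936 of the range of the group, for miR-92a 0.924 and for miR-19b 0.832, each above the critical value of Dixon's test for 4 values. In these 3 miRNAs it was the highest aged rat, as it was in the 3 detected acinar miRNAs. Of 22 measures checked in this group 3 passed. Chance passes about 1 in 20 of independent measures, but most of the 22 were chosen by their r with the acinar mean. They vary together, so the count cannot be set against that rate. Since replicate 10 had the highest acinar mean of the aged rats, its high place in these 3 miRNAs follows in part from that choice. The young group of 3 arrays is too small for this test.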

How the results depend on the processing

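The age difference of each of the 3 detected acinar miRNAs was negative in all 26 alternatives, between -2.77 and -1.32 for miR-216a, -2.76 and -0.88 for miR-216b-5p and -2.41 and -1.23 for miR-217. Only the array weights took their adjusted p below 0.05 (-2.69, -2.76 and -2.35, adjusted p 0.0241, 0.0343 and 0.033). The adjusted p was otherwise between 0.0648 and 0.524, and 0.335, 0.335 and 0.326 by the methods' t-test, which called 49 of the 272 miRNAs before and 3 after adjustment. With 1 rat left out the difference ranged from -2.77 to -1.53 for miR-216a, from -2.75 to -1.53 for miR-216b-5p and from -2.41 to -1.34 for miR-217.

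The number of slopes on the acinar mean that passed was 24 in arrays scaled to miR-7a, 1 scaled to miR-375 (added after the data were seen) and 15 with no age term, and 0 to 8 with 1 rat left out. The age calls with the covariate numbered 115 with no normalisation, 77 with no filter, and 17 to 61 with 1 rat left out. The adjusted exact calls by r numbered 23 scaled to miR-7a, 11 scaled to miR-375, 9 in the deposited matrix, and 0 with no normalisation, no filter, the row as a block, both 12-month-old replicate 10 and 3-month-old replicate 13 left out (added after the data were seen), or 1 rat left out (0 to 0). With 6 arrays the permutations are fewer and the smallest p is larger. Of 458 values of r for the 17 named miRNAs, 449 kept their sign. The 9 others were miR-27a (-0.17 and -0.71 with the 75th percentile, taken over the miRNAs all arrays detected and over all miRNAs, -0.52 with no normalisation, -0.026 with normexp, -0.36 without the 2 farthest arrays), miR-322 (-0.19 with no normalisation), and miR-139-3p (-0.61), miR-652* (-0.18) and miR-340-5p (0.0498) without the 2 farthest arrays. The cause was not tested. No paired analysis was possible because the 2 ages share no replicate numbers.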
